A study of Homo sapiens with 12 samples.

Results

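The MX and GBP genes encode large GTPases that interferon induces, and 7 of them, MX1, MX2, GBP1, GBP2, GBP3, GBP4 and GBP5, are described here after depletion of USP15 in human leukemia cells. The members were taken by gene symbol from a table of 26226 genes in KBM7 and one of 28328 genes in K562, which together list 31316 genes. All 7 members had a row in the KBM7 table and 6 in the K562 table. KBM7 and K562 are established cell lines from chronic myeloid leukemia in blast crisis. Cells received siRNAs that target USP15, a deubiquitinase, as 1 pool (siUSP15), or were transfected with a non-targeting pool as control (siCtrl). RNA was taken 72 h later, and each group held 2 libraries in KBM7 and 4 in K562. With 1 pool per target, loss of USP15 and any other action of the pool cannot be told apart, and no source says that the libraries of a group came from separate cultures, so that p-values measure the spread between libraries.

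Interferons signal through JAK kinases to STAT transcription factors. Type I and III interferons act mainly through a complex with STAT2 and IRF9 that binds the interferon-stimulated response element (ISRE), and interferon gamma acts through STAT dimers, which bind the gamma-activated site (GAS), and through IRF1. MX proteins belong to the dynamin superfamily and restrict viruses, whereas guanylate-binding proteins (GBPs) coat vacuoles and bacteria in the cytosol and bring inflammatory caspases to them. In leukemia cells, as in other cells, their transcripts are common readouts of interferon signaling.

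The members lie in 2 tight groups of the genome. In hg38, MX2 (ENSG00000183486) lies on chromosome 21 from 41361943 to 41409390 and MX1 (ENSG00000157601) from 41420304 to 41459214, both on the plus strand and 10.9 kb apart. The GBP members lie within 266.1 kb of chromosome 1, all on the minus strand, in the order GBP3 (ENSG00000117226, 89006666 to 89022894), GBP1 (ENSG00000117228, 89052319 to 89065360), GBP2 (ENSG00000162645, 89106132 to 89150456), GBP4 (ENSG00000162654, 89181148 to 89198932) and GBP5 (ENSG00000154451, 89258950 to 89272804). GBP7, another guanylate-binding protein gene of the same strand, overlaps the annotated span of GBP2.

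RefSeq promoters, from 250 bases before to 50 bases after a transcription start, were at hand for 4 members, MX1 with 3 starts and GBP1, GBP3 and GBP4 with 1 each. They are shown because these genes respond to interferon, and because GBP1 and GBP3 rose in KBM7 while GBP4 fell. The strings searched were the ISRE core GAAANNGAAA on both strands and the GAS string TTCNNNGAA, which is its own reverse complement. Of 35116 promoters of 300 bases in the RefSeq table, 3.57% held the ISRE core and 7.66% the GAS string. Each sequence runs 5′ to 3′ along its gene, in GRCh38.p14, with matches to either string in capitals.
GBP1, chr1:89065159-89065458, minus strand: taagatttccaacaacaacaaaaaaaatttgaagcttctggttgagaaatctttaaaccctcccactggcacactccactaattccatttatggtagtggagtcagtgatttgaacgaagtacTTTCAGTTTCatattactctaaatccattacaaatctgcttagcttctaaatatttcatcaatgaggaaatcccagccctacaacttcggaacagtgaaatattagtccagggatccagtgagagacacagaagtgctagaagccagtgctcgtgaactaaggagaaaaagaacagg
GBP3, chr1:89022817-89023116, minus strand: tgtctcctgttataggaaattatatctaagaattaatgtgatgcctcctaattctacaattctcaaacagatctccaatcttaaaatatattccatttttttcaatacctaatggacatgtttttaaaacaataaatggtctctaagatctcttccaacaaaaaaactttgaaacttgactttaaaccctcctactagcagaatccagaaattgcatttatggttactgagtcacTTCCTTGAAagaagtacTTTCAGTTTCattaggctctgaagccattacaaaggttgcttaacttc
GBP4, chr1:89198893-89199192, minus strand: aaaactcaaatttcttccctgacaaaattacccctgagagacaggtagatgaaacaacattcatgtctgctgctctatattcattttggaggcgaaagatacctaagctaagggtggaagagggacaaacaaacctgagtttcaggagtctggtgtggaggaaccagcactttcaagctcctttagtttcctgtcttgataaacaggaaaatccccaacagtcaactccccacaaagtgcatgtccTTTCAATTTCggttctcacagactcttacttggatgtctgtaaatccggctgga
MX1, first start, chr21:41420308-41420607, plus strand: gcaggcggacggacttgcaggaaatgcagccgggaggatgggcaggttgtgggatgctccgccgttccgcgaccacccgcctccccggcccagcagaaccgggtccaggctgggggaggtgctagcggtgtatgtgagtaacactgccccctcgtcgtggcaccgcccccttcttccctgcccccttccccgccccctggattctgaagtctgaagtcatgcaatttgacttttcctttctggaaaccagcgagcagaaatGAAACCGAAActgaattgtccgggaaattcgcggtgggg

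Each of the 4 printed promoters held 1 ISRE core. In GBP1 it read TTTCAGTTTC and began 127 bases before the start. GBP3 had the same 10 letters, which began 2 bases after its start, and a GAS string TTCCTTGAA that began 15 bases before it. The best local alignment of the GBP1 and GBP3 promoters spanned 156 columns, of which 117 (75.0%) were identical, so that one stretch sits at different distances from the 2 annotated starts. GBP4 held TTTCAATTTC, which began 4 bases before its start, and the first start of MX1 held GAAACCGAAA, which began 11 bases after it. The third start of MX1 held an ISRE core and a GAS string that overlap, and the second held neither. A match to the core was thus found in GBP4, which fell, as well as in GBP1 and GBP3, which rose. A match is a description of the letters and does not show that a factor binds there.

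USP15 RNA, the check of the labels, was 53.4% of its siCtrl level in KBM7 and 52.4% in K562. Libraries held 23450607 to 29441118 counts in KBM7 and 23020401 to 43566543 in K562. In K562, replicates 1 and 2 stood apart from replicates 3 and 4 with either siRNA, so that these 2 sets are named throughout and K562 values are given without a block and with the sets as a block. KBM7 showed the hematopoietic markers PTPRC and CD34, and K562 the erythroid markers GATA1 and HBG2, while CD34 had at most 1 count in any K562 library. The other markers did not split the lines so sharply. With siCtrl, K562 also had PTPRC at 30.1 CPM and SPI1 at 27.0 CPM, and KBM7 had HBE1 at 49.9 CPM and GATA1 at 32.6 CPM. Of 5 tested hematopoietic markers in KBM7, 2 rose and 2 fell with siUSP15, against 13.2% and 15.8% of all genes. In KBM7, 4 of the 4 tested erythroid markers fell with siUSP15, of which KLF1 passed the count filter only through siCtrl. The summed level of the 5 listed erythroid markers was 91.3 to 109.2 CPM with siCtrl and 24.6 to 31.0 CPM with siUSP15, with none of them at 0. Their part in the results on the members was not tested.

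In KBM7, 5 of the 7 members rose with siUSP15 and 2 fell, all at an adjusted p under 0.05 from edgeR. MX1, MX2, GBP1, GBP2 and GBP3 rose, by 1.60-fold to 6.04-fold, and GBP4 and GBP5, the GBP genes with the highest siCtrl levels, fell to 80.7% and 78.3%. By the same rule 13.2% of the 14980 genes tested were higher and 15.8% were lower. The median log2 fold change of the members was 1.21, and that of all genes tested was 0.000671. Levels are normalized CPM (the count of a gene scaled to library size by TMM). With 2 libraries against 2, groups often separate by chance, and the share of all genes that do so was not counted. Groups that do not overlap are thus a description only. In bulk RNA fewer expressing cells and less RNA per cell cannot be told apart.

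MX2 restricts lentiviruses and herpesviruses at the nuclear envelope. Its level in KBM7 was 14.0 and 10.9 CPM in the siCtrl libraries and 72.3 and 56.7 CPM in the siUSP15 libraries. Both siUSP15 libraries thus lay far above both siCtrl libraries. The log2 fold change was 2.36 (SE 0.124, edgeR adjusted p = 2.96e-07), or 5.14-fold, the 15th highest of all genes tested. MX1, which blocks influenza and other viruses in the cytoplasm, was much lower, at 1.27 and 1.18 CPM with siCtrl and 2.97 and 2.74 CPM with siUSP15, from 37, 28, 85 and 65 counts. It rose 2.32-fold, a log2 fold change of 1.21 (SE 0.204, edgeR adjusted p = 0.00103). The groups did not overlap for either MX gene, which is a description only with 2 libraries against 2.

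GBP1, which binds lipopolysaccharide and starts the GBP coat on bacteria, had the largest fold change of the members. Its level was 0.895 and 0.804 CPM with siCtrl and 6.16 and 4.09 CPM with siUSP15, from 26, 19, 176 and 97 counts. The siUSP15 libraries differed more from each other than the siCtrl libraries did, and both were above them. The log2 fold change of GBP1 was 2.60 (SE 0.256, edgeR adjusted p = 2.30e-05), the 8th highest of all genes tested. Of its windows of 50 bases, 14.0% occur in transcripts of another gene, 324 of 398 of them in the pseudogene GBP1P1, which had at most 3 counts in any KBM7 library.

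GBP3, which joins the coat that GBP1 starts, had 5.82 and 4.91 CPM with siCtrl and 12.7 and 12.9 CPM with siUSP15. The siUSP15 libraries were close to each other and above both controls. GBP3 rose 2.37-fold, a log2 fold change of 1.25 (SE 0.116, edgeR adjusted p = 1.52e-05). GBP2, a lipid-anchored member of the coat, had 4.06 and 3.34 CPM with siCtrl and 5.74 and 6.20 CPM with siUSP15. Its change was the smallest of the 5 that rose, 0.67 on the log2 scale (SE 0.148, edgeR adjusted p = 0.00545). Of the 50-base windows of GBP3, 3.38% occur in another member, and of those of GBP2, 0.990%.

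GBP4 and GBP5 went the other way. GBP4, which takes part in bringing caspase-4 to bacteria, had 61.6 and 64.1 CPM with siCtrl and 49.9 and 51.6 CPM with siUSP15, and both siUSP15 libraries lay below both controls. Its log2 fold change was -0.31 (SE 0.0526, edgeR adjusted p = 0.00111). GBP5, a prenylated member that inhibits the protease furin and promotes the NLRP3 inflammasome, had 26.4 and 26.3 CPM with siCtrl and 19.4 and 22.0 CPM with siUSP15. Its log2 fold change was -0.35 (SE 0.0792, edgeR adjusted p = 0.00604). The groups did not overlap for GBP4 or GBP5, but the fall of GBP5 lost its call without siCtrl replicate 1 (edgeR adjusted p = 0.0599). Summed to 1 row, the 5 GBP genes had a log2 fold change of -0.06 (edgeR adjusted p = 0.374), whereas MX1 and MX2 summed had 2.29 (edgeR adjusted p = 2.81e-07).

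**Figure D1:**
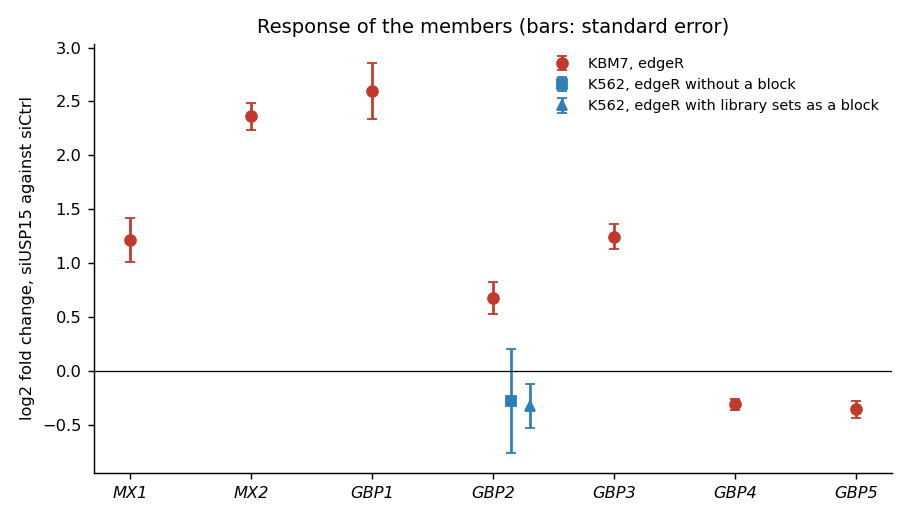
Log2 fold change of siUSP15 against siCtrl for each member (horizontal), with bars of 1 standard error, from edgeR in KBM7 (red) and, for GBP2 alone, in K562 without a block (square) and with the library sets as a block (triangle). In KBM7 GBP1 and MX2 lie above 2, MX1 and GBP3 near 1.2, GBP2 at 0.67, and GBP4 and GBP5 just below 0, while both K562 values of GBP2 are near -0.3.

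When both cell lines were fitted together, with 1 estimate of the spread for all 4 groups, 2 of 6 members kept their call in KBM7, MX2 and GBP3, against 3.64% of all genes. GBP1 could not enter that fit without its K562 row. The fold changes moved little there, with MX1 at 1.22 (edgeR adjusted p = 0.174), GBP2 at 0.69 (edgeR adjusted p = 0.581), GBP4 at -0.30 (edgeR adjusted p = 0.796) and GBP5 at -0.34 (edgeR adjusted p = 0.846). Of the gene lists of interferon signaling and of GBP partners, 1 transcription factor and 1 close relative of the members kept a call there.

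The order of the members in KBM7 changed with siUSP15. Per kilobase of the canonical transcript, or CPM per kb, GBP4 was highest with siCtrl at 10.2 ± 0.288 (SD, n = 2), followed by GBP5 at 3.87 ± 0.010 and MX2 at 3.66 ± 0.643, whose libraries overlapped. GBP3 was at 1.77 ± 0.212, GBP2 at 0.906 ± 0.125, MX1 at 0.443 ± 0.0228 and GBP1 lowest at 0.295 ± 0.0224 CPM per kb (SD, n = 2). With siUSP15, MX2 was highest at 18.9 ± 3.23 CPM per kb, above GBP4 at 8.26 ± 0.196 (SD, n = 2). GBP3 at 4.21 ± 0.0305 then stood above GBP5 at 3.04 ± 0.274 CPM per kb, and GBP1 at 1.78 ± 0.507 overlapped GBP2 at 1.46 ± 0.0801 CPM per kb, with MX1 last at 1.03 ± 0.0591 CPM per kb (SD, n = 2). By CPM without length, GBP5 at 20.7 stayed above GBP3 at 12.8 with siUSP15, and GBP2 stayed above GBP1, while MX2 was highest on both scales. Of the summed level of the 7 members per length, GBP4 made up 48.4% with siCtrl and 21.4% with siUSP15, and MX2 made up 17.2% and 48.7%. The summed level was 20.6 and 21.7 CPM per kb in the siCtrl libraries and 36.4 and 41.0 CPM per kb in the siUSP15 libraries.

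The genes whose values over the 4 KBM7 libraries were most like a member's were found by the root mean square (RMS) difference in log2 CPM after each gene's siCtrl mean was taken away, among 12202 genes. MX2 and GBP1 were each other's nearest gene, with an RMS difference of 0.132, and KLHDC7B came next for both, at 0.148 from MX2 and 0.145 from GBP1. EPX followed for MX2 (0.182), and the interferon-induced gene IFI27 for GBP1 (0.174). Nearest to MX1 was MPZL2 (RMS difference 0.0261), to GBP2 LINC01224 (0.0366) and to GBP3 VNN1 (0.0143). GBP4 was nearest to PHF6 (0.00774) and GBP5 to FDPS (0.00513). With 4 libraries many genes are close to a gene with a small change, so that these distances describe the pattern only.

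Genes beside the members did not all follow them. Of 9 tested neighbours within 500000 bases of the GBP cluster in KBM7, 2 rose and 2 fell, and of 2 tested neighbours of the MX pair 1 fell. Of all genes tested, 13.2% rose and 15.8% fell. GBP7, inside the cluster, had 6 to 14 counts with siCtrl and 8 to 12 with siUSP15, and its log2 fold change of 0.02 did not pass (edgeR adjusted p = 0.986). RBMXL1, the nearest tested gene outside the cluster at 13.7 kb, rose by 0.37 on the log2 scale (edgeR adjusted p = 0.00596). It overlaps CCBL2, which had 0.16 (edgeR adjusted p = 0.114). On the other side LRRC8B, at 252.0 kb, had -0.16 (edgeR adjusted p = 0.0335), LRRC8C -0.17 (edgeR adjusted p = 0.0473) and FLJ27354, an antisense gene that overlaps LRRC8B, 0.93 (edgeR adjusted p = 0.0380). No source says whether counting used the strand, so reads of LRRC8B and FLJ27354 may not be told apart. PRDM15, 339.0 kb from the MX pair, had -0.25 (edgeR adjusted p = 0.0342).

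Of the 21 listed interferon genes, 2 passed the count filter. IFNB1, which encodes interferon beta, had 61 to 65 counts with siCtrl and 91 to 99 with siUSP15 and rose by 0.60 on the log2 scale (edgeR adjusted p = 0.0299), and IFNL1 had 0.08 (edgeR adjusted p = 0.909). The call of IFNB1 was lost with DESeq2 and without siCtrl replicate 1 or siUSP15 replicate 2. Of 8 tested receptors and kinases 1 rose and 3 fell, against 13.2% and 15.8% of all genes. IL10RB, a chain of the receptor for type III interferons, had 0.29 (edgeR adjusted p = 0.0491). IFNAR2 of the type I receptor had -0.35 (edgeR adjusted p = 0.00474), IFNGR1 of the interferon gamma receptor -0.32 (edgeR adjusted p = 0.00199) and JAK1 -0.13 (edgeR adjusted p = 0.0481).

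Of 5 tested transcription factors 3 rose, against 13.2% of all genes, with a list median of 0.39 on the log2 scale. STAT2 rose by 0.65 on the log2 scale, IRF1 by 0.62 and IRF7 by 0.39, with adjusted p from edgeR of 3.75e-06, 8.08e-06 and 0.00123. IRF9, the partner of STAT2 at the ISRE, had 0.28 (edgeR adjusted p = 0.109). Of 7 inhibitors of the pathway 2 rose and 2 fell, against 13.2% and 15.8% of all genes. USP18, which blocks signaling at IFNAR2 and is itself interferon-induced, rose by 0.75 on the log2 scale (edgeR adjusted p = 1.64e-06) and the phosphatase gene PTPN6 by 0.18 (edgeR adjusted p = 0.00817). SOCS3, an inhibitor of cytokine receptors that STAT factors induce, had -1.40 (edgeR adjusted p = 6.93e-07) and SOCS1 -0.38 (edgeR adjusted p = 0.0202).

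Among partners of the GBPs, 4 of 8 tested genes of the inflammasome and pyroptosis list rose, against 13.2% of all genes. That list also holds the kinase gene PIM1. CASP1 had 3 to 5 counts with siCtrl and 23 to 37 with siUSP15, a log2 fold change of 2.88 (edgeR adjusted p = 0.000317). CASP1 passed the count filter only through siUSP15, where it was high, so that its call does not add support to the count of 4. CASP4, whose protein senses lipopolysaccharide on the GBP coat, had 31.4 ± 2.16 CPM with siCtrl and 48.9 ± 3.72 CPM with siUSP15 (SD, n = 2) and rose by 0.64 on the log2 scale (edgeR adjusted p = 6.20e-05). PIM1, whose kinase binds GBP1, rose by 0.19 on the log2 scale (edgeR adjusted p = 0.00946) and GSDMD, which encodes the pore-forming gasdermin D, by 0.20 (edgeR adjusted p = 0.0452). Of 6 enzymes of prenylation, the lipid modification of GBP1, GBP2 and GBP5, 1 fell, against 15.8% of all genes. It was ICMT with -0.15 (edgeR adjusted p = 0.0220). Of 10 genes for dynamins and atlastins, the wider GTPase superfamily, 2 rose, against 13.2% of all genes. They were ATL3, by 0.22 (edgeR adjusted p = 0.0179), and OPA1, by 0.19 on the log2 scale (edgeR adjusted p = 0.00748). Of 4 tested close relatives, the pseudogene GVINP1 rose by 1.04 on the log2 scale (edgeR adjusted p = 0.0141) and IRGQ had -0.42 (edgeR adjusted p = 0.000313).

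**Figure D2:**
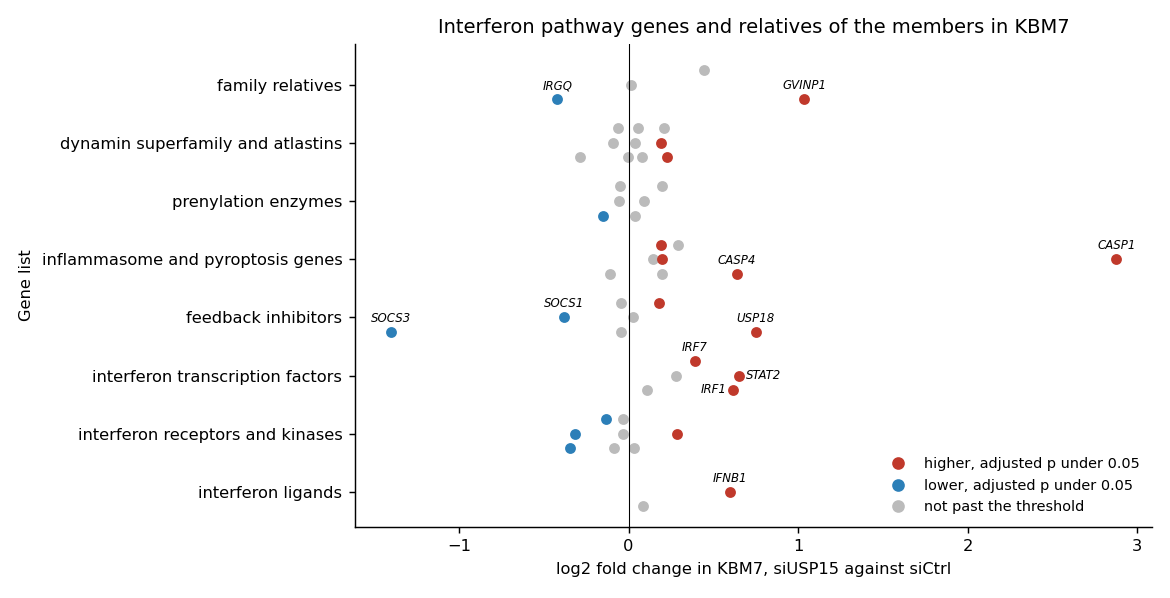
Log2 fold change in KBM7 (horizontal) of each tested gene of 8 lists (vertical), red for higher and blue for lower genes at an adjusted p under 0.05 from edgeR and gray for the others, with names for called genes beyond 0.35. STAT2, IRF1 and IRF7 lie on the higher side, SOCS3 is lowest at -1.40, and most dynamins and prenylation enzymes lie near 0. CASP1, which passed the count filter only through siUSP15, is highest at 2.88.

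In K562 the members were at or near the limit of detection. MX1, MX2 and GBP3 were below detection, with 3 or fewer counts in every library, and GBP1 had no row in the K562 table, in which every listed gene holds at least 1 count over the 8 libraries. GBP4 and GBP5 were detected but fell below the count filter, and only GBP2 was tested. MX1 had 2 counts in siUSP15 replicate 1 and 0 in the other 7 libraries. MX2 had 0 to 2 counts in each library, 5 in all over siCtrl and 3 over siUSP15, and GBP3 had 0 or 1 count, 2 in all in either group. A level of up to 0.127 CPM is allowed by 3 counts in the shallowest library, which is below every KBM7 level given above. No change of MX1, MX2 or GBP3 could be measured in K562 at this depth, and intervals and limits cover counting error only.

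GBP2 in K562 had 1.82, 1.66, 0.779 and 0.614 CPM in siCtrl replicates 1 to 4 and 1.48, 1.34, 0.363 and 0.764 CPM in siUSP15 replicates 1 to 4, from 10 to 59 counts. The groups overlapped, and replicates 1 and 2 were above replicates 3 and 4 with either siRNA. Without a block 0 of 1 tested member passed, against 0% of 13731 genes, of which 1447 had an unadjusted p under 0.05 (DESeq2 called 323 genes and limma-voom 0, and neither called GBP2). The fall of USP15 did not pass in that edgeR fit either. The lack of calls there thus does not show a lack of response. The log2 fold change of GBP2 was -0.28 (SE 0.484, edgeR adjusted p = 0.892), and with the library sets as a block it was -0.32 (SE 0.202, edgeR adjusted p = 0.289), where 15.8% of all genes passed. An exact permutation test gave p = 0.514 over all exchanges of libraries and p = 0.167 over exchanges within the sets (2-sided, smallest possible p 0.0286 and 0.0556). The siUSP15 level was 81.0% of the siCtrl level in replicates 1 and 2 and 80.9% in replicates 3 and 4.

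GBP4 and GBP5 in K562 depended on the library set. GBP4 had 20, 14, 4 and 2 counts in siCtrl replicates 1 to 4 and 14, 17, 5 and 2 in siUSP15 replicates 1 to 4. GBP5 had 32, 21, 4 and 1 counts in siCtrl and 9, 11, 2 and 3 in siUSP15. In replicates 1 and 2 the GBP5 level was 1.35 and 0.874 CPM with siCtrl and 0.370 and 0.251 CPM with siUSP15, and these groups did not overlap, whereas in replicates 3 and 4 either siRNA had 5 counts in all. Singled out after its values were seen, GBP5 had a log2 fold change of -1.90 in replicates 1 and 2 alone (edgeR adjusted p = 0.00197), where 17.1% of all genes were lower. GBP5 passed the count filter of that fit only through siCtrl, where it was high, so that this p-value does not support a fall. Over all 8 libraries without the count filter the log2 fold change of GBP5 was -1.48 (edgeR adjusted p = 0.705) without a block and -1.56 (edgeR adjusted p = 0.000326) with the sets as a block, where 4.65% of all genes were lower. The exact permutation test of GBP5 gave p = 0.429 over all exchanges and p = 0.222 within the sets, and that of GBP4 gave p = 0.8 and p = 0.611. Mitochondrially encoded genes took 4.34% to 4.94% of counts in replicates 1 and 2 and 2.91% to 2.96% in replicates 3 and 4, and their part in this pattern was not tested.

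**Figure D3:**
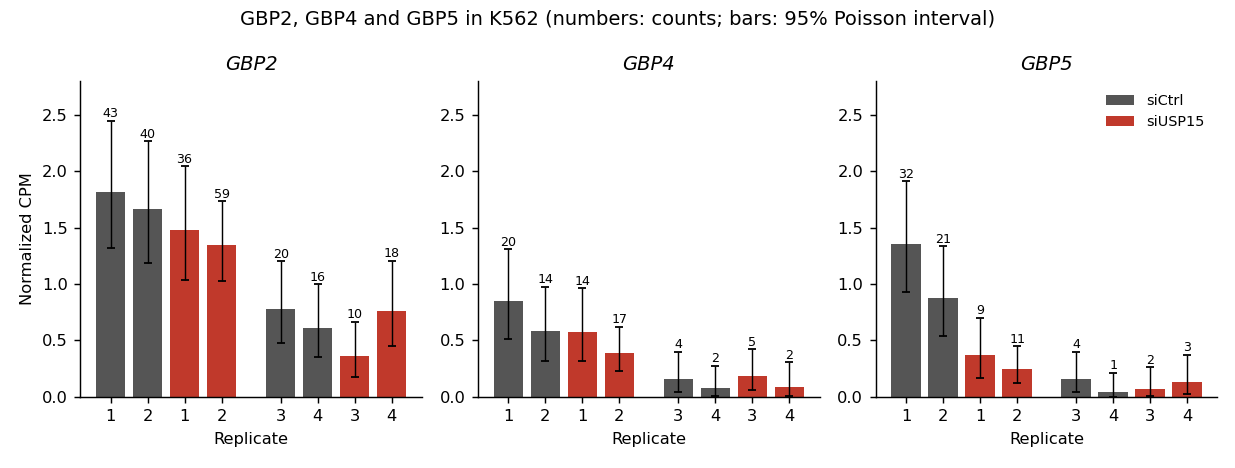
Normalized CPM (vertical) of GBP2, GBP4 and GBP5 in each K562 library by replicate number (horizontal), with siCtrl in gray, siUSP15 in red, exact 95% Poisson intervals as bars and raw counts as numbers. Replicates 1 and 2 lie above replicates 3 and 4 for siCtrl in all 3 genes, and GBP5 separates siCtrl (32 and 21 counts) from siUSP15 (9 and 11 counts) in replicates 1 and 2 only.

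With siCtrl, the levels of the 6 members listed in both tables were higher in KBM7 than in K562. For 5 of them, which did not pass the count filter in K562 and entered a joint fit through KBM7 alone, the ratio is a description with no test. GBP2, which passed in both lines, was higher in KBM7 by edgeR, as were 37.7% of the 15833 genes tested. Each line has a table of its own, so that cell line and sequencing run cannot be told apart. MX1 was at least 40.9-fold higher, against a floor of 3 counts over the K562 group. From pooled counts MX2 was 250.9-fold higher (95% interval 107.0 to 775.4, counting error only), GBP3 268.9-fold (73.8 to 2231), GBP4 155.9-fold (114.3 to 218.7) and GBP5 45.2-fold (34.7 to 59.8). The difference was smallest for GBP2, at 3.12-fold (2.48 to 3.96), with an adjusted p of 0.0109 from edgeR, which was 0.0773 without KBM7 siCtrl replicate 1. These ratios pool the K562 library sets, and the edgeR fit had no block. With siCtrl, mean levels in K562 replicates 1 and 2 and in replicates 3 and 4 were 1.11 and 0.0971 CPM for GBP5. They were 0.714 and 0.116 CPM for GBP4, and 1.74 and 0.697 CPM for GBP2. The ratio to KBM7 thus depends on the set, and the intervals leave this difference out. USP18, high in KBM7, had 2 to 15 counts in K562, and CASP4 had 0 to 5.

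Whether the response to siUSP15 differed between the cell lines was tested with an interaction term for cell line and siRNA in a fit of the 12 libraries. Without a block 0 of the 6 members passed, against 1.69% of 15833 genes. Of the 6, only GBP2 passed the count filter in K562. By edgeR 1 member had an unadjusted p under 0.05, DESeq2 called 1 and limma-voom 0. That member was MX2, with a difference of 3.25 on the log2 scale (edgeR adjusted p = 0.0926), which rests on the 8 counts of MX2 in K562. With the library sets as a block 2 members passed, both larger in KBM7, as were 7.94% of all genes. The difference was 1.00 for GBP2 (SE 0.258, edgeR adjusted p = 0.0134) and 1.28 for GBP5 (SE 0.375, edgeR adjusted p = 0.0264). For GBP2 a rise in KBM7 stood against a value below 0 in K562 that did not pass, and for GBP5 a fall in KBM7 stood against a lower value in K562. GBP5 did not pass the count filter in K562, where it had 1 to 32 counts, and entered this fit through KBM7, so that its value does not support a difference in response. Its call was lost without K562 siCtrl replicate 1, siUSP15 replicate 1 or siUSP15 replicate 2. No source says that libraries of the same number are pairs. With the replicate numbers as a block, GBP2 (0.99, edgeR adjusted p = 0.0389) and MX2 (3.14, edgeR adjusted p = 0.0369) passed, against 5.58% of all genes. MX2 was below detection in K562 and entered through KBM7, so that its value does not support a difference in response. IRF1 passed without a block, with a difference of 0.80 (edgeR adjusted p = 0.0233).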

How the data were processed

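Total RNA libraries (TruSeq) of KBM7 and K562 were sequenced by the authors. The authors' deposited tables hold raw counts per gene, with log2 values, fold changes and p-values that were not used here. The submitters' processing notes name TopHat2 2.1.0, hg38, HTSeq, edgeR and limma.

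Counts were filtered with filterByExpr, scaled by TMM and tested per cell line by quasi-likelihood in edgeR 4.0.16 (R 4.3.3), 2-sided, with Benjamini-Hochberg adjustment over all genes tested and a threshold of 0.05. The interaction and the siCtrl comparison used genes listed in both tables. Below detection means 3 or fewer counts in every library. Tests were tried on simulated counts with 1 fixed spread, in which only genes with many counts were changed. That trial does not cover low counts such as those of the members in K562. In K562, deviations of same-numbered libraries correlated at 0.55 to 0.695 in 4 pairs, those of other pairs of the same set at 0.551 to 0.701, and in KBM7 at 0.000976.

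The members and gene lists were chosen with earlier results of these data known, and some list genes are not reported here. Named were all members, list genes past the threshold (at most 4 per list, by lowest p), the nearest tested neighbours (at most 4 a side) and the 3 genes most like each member, of which the nearest are given. Promoters came from RefSeq (GRCh38.p14), and transcript lengths and 50-base windows from GENCODE transcripts. Alternatives were RLE size factors, no filter, DESeq2 1.42.0, limma-voom 3.58.1, other thresholds, each library left out, blocks, both lines in one fit and paralogs summed.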

Additional observations from a re-analysis of the deposited data

Results flagged for a closer look

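GBP5 and GBP2 were set apart because they passed the test for an interaction between siRNA and cell line with the K562 library sets as a block, with differences of 1.28 for GBP5 and 1.00 for GBP2 on the log2 scale. GBP5 was below the count filter in K562 and entered that fit through KBM7, so that its value does not support a difference in response. Neither difference passed without the block. In K562, 3 libraries stood away from the other 3 of their group by Dixon's test, and each rests on 2 counts or fewer. At such counts 1 odd count among equal ones passes the rule. The usual rate of about 1 in 20 groups by chance thus does not hold here. MX1 was at 0.0822 CPM in siUSP15 replicate 1 (2 counts) and at 0 in the others. MX2 was at 0.0846 CPM in siCtrl replicate 1 (2 counts, against 1 in each of the others) and at 0 in siUSP15 replicate 2 (against 1 count in each of the others).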

How the results depend on the processing

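In KBM7 all 7 members kept their direction in every alternative that gave them a value, and all 7 passed with RLE size factors, no filter, DESeq2, limma-voom, both other thresholds and the replicate block. With a library left out 6 to 7 passed, with both lines in one fit 2 of 6, and with paralogs summed 1 of 2 rows (2 of 2 in the siCtrl comparison). The genes called in KBM7, 4345 as tested in the report, were 2481 at a threshold of 0.01, 2552 with DESeq2, 577 with both lines in one fit and 2214 to 5129 with a library left out (2214 and 2651 without siCtrl replicates 1 and 2).
In K562 the genes called, 0 as tested in the report without a block, were 1 without the filter, 323 with DESeq2, 4 with both lines in one fit, 0 to 1 with a library left out, 4775 in replicates 1 and 2 alone (1 member, GBP5, which passed the count filter there only through siCtrl) and 277 in replicates 3 and 4 alone. They were 1022 with the replicate block, 2167 with the library sets as a block (without siCtrl replicates 1 to 4 in turn 860, 555, 2250 and 1818, and without siUSP15 replicates 1 to 4 in turn 820, 1344, 1957 and 2639) and 2818 with these sets and no filter (1 member, an alternative added after the data were seen).
In the interaction the genes called, 268 as tested in the report without a block, were 74 and 455 at thresholds of 0.01 and 0.1, 738 with DESeq2, 40 to 250 with a library left out (94 and 40 without KBM7 siCtrl replicates 1 and 2, 46 and 130 without KBM7 siUSP15 replicates 1 and 2, and 167 to 169 without K562 siCtrl replicate 2, siUSP15 replicate 1 or siUSP15 replicate 2), 1789 with the replicate block, 2529 with the library sets as a block (without K562 siCtrl replicates 1 to 4 in turn 2217, 1940, 2598 and 2401, and without siUSP15 replicates 1 to 4 in turn 2153, 2493, 2391 and 2786), 2632 with these sets and no filter, and 2481 with these sets and genes of either table. Members called were 1 at 0.1 and with DESeq2 (MX2 in both), 2 with either block, 1 to 2 with the sets and a library left out, 3 with the sets and no filter and 2 with genes of either table, where GBP1, filled in at 0 in K562, had 2.60 (adjusted p = 1 from edgeR). The last 2 were added after the data were seen. Only GBP2 of the members passed the count filter in K562, so that calls of the others do not support a difference in response. MX1 and GBP4, which passed in no interaction fit, changed sign there. MX1 had 0.024 with DESeq2 (no adjusted p), 0.85 with limma-voom and -1.50 to 1.22 with a library left out, and 1.22 with the sets as a block and without K562 siUSP15 replicate 1. GBP4 had -0.18 with limma-voom, -0.56 to 0.40 with a library left out, and, under the sets as a block, -0.11 without K562 siCtrl replicate 1 and -0.13 without siUSP15 replicate 2. Their causes were not tested.
Ordering the members in KBM7 by CPM in place of CPM per length changed no place with siCtrl, and with siUSP15 exchanged GBP3 with GBP5 and GBP1 with GBP2. With a KBM7 library left out, calls in the gene lists were 3 transcription factors each time, 0 to 1 ligands, 1 to 3 receptors and kinases, 2 to 4 inhibitors, 2 to 6 inflammasome genes, 0 to 1 prenylation enzymes, 0 to 2 dynamins and 1 to 2 relatives, with the fewest without siCtrl replicate 1 or 2 in each list that lost calls, shared for the ligands with siUSP15 replicate 2 and for prenylation enzymes and relatives with siUSP15 replicate 1. Only 2 libraries per group in KBM7 and the low counts in K562 limit the precision.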
